A study of Mus musculus with 8 samples.

Results

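Expression of 10 acyl-CoA thioesterase genes (Acot1, Acot2, Acot3, Acot4, Acot6, Acot7, Acot8, Acot9, Acot11 and Acot13) was measured by RNA sequencing in neonatal cardiomyocytes (NCMs) of mice exposed in utero to filtered air (FA) or diesel exhaust (DE). The family was chosen by the DE to FA difference in these same libraries, with Acot1 and Acot2 among the genes that differed most. The DE to FA values of these 10 genes, and whether each met the call used for all genes, are therefore given as a description that supports nothing, and without p-values. The 10 genes are those of the 27179 listed genes that carry the Acot symbols above, and all 10 were among the 14966 genes that passed the filter on low counts (at least 10 reads in enough libraries). Acot3, Acot4 and Acot6 were low and reached the filter's level in all 4 FA libraries but not in all DE libraries.

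Pregnant C57Bl/6J dams breathed FA or DE from embryonic day 0.5 into late gestation, and the hearts of male pups were taken on postnatal day 0. There were 4 FA libraries (replicates 2, 3, 4 and 6) and 4 DE libraries (replicates 1, 3, 5 and 7), each from the ventricles of 1 heart. Cells were dispersed with Liberase and left briefly with Ara-C, an inhibitor of dividing cells, so that fibroblasts attached to the plate, and the cardiomyocytes still in suspension were pelleted and frozen. Both groups were wild type and went through the same isolation, and the litter of each pup is not given, so the p-values below measure the spread between these libraries. The libraries held 17943024 to 39839737 counted reads. The number 11 stands in the names of 6 libraries (every FA library, DE replicates 1 and 7), and the number 12 in those of DE replicates 3 and 5. What the number stands for is not given. On the first principal component (50% of the variance) DE replicates 3 and 5 lay apart from DE replicates 1 and 7, and FA replicates 2 and 4 apart from FA replicates 3 and 6. Log2 differences of the members from the libraries of number 11 alone are given beside their main values.

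Acyl-CoA thioesterases hydrolyse fatty acyl-CoA, the activated form in which a fatty acid enters β-oxidation or lipid synthesis, to the free fatty acid and coenzyme A (CoA). They thereby work against the acyl-CoA synthetases, which spend ATP to make acyl-CoA. Mouse thioesterases fall into families that are unrelated in sequence. Type I enzymes (Acot1 to Acot6) share an α/β-hydrolase fold, lie side by side in a cluster on chromosome 12, and differ mainly in where they act: Acot1 in the cytosol, Acot2 in the mitochondrial matrix and Acot3, Acot4 and Acot6 in peroxisomes. Type II enzymes (Acot7, Acot8, Acot9, Acot11 and Acot13) share the hotdog fold and are scattered over the genome. Acot1 and Acot2 are known in heart and liver as targets of PPAR alpha, the nuclear receptor that is activated by fatty acids.

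Acot1 and Acot2 are near-copies of each other in their coding part, and that bears on how reads can be assigned to them. Their coding sequences in the GENCODE M21 transcripts (1257 and 1359 nt) were identical at 1181 of 1236 aligned bases (95.6%), and the longest identical run had 273 bases. The other chromosome 12 pairs were identical at 75.3 to 85.8% of aligned bases. The most different ungapped stretch of 90 bases in Acot1 and Acot2 lies in exon 3 of both genes and is shown because reads from such stretches can tell the pair apart. Capitals mark the 14 bases that differ. The Acot1 stretch is on the plus strand of GRCm38 at chr12:84016916-84017005 and the Acot2 stretch at chr12:83992638-83992727.
Acot1: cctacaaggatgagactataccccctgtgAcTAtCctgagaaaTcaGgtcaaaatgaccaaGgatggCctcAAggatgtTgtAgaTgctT
Acot2: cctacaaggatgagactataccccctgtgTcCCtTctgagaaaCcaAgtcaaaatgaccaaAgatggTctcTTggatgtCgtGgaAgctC

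Of all 50-base windows of the Acot1 transcript, 32.1% occurred letter for letter in another Acot transcript, most often in Acot2 (23.7%). For Acot2 the share was 27.6%. Acot3, Acot4 and Acot6 shared 4.5 to 7.7% of their windows with another family member. Acot9 shared 20.2%, all with Acot10, which is 97.2% identical to it in coding sequence. Acot7, Acot8, Acot11 and Acot13 shared none. How reads with several equally good positions were counted is not given in the sources used here, so the split of reads within the chromosome 12 cluster is uncertain and the cluster is also given as a sum.

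Outside the coding part, the start regions of Acot1 and Acot2 had little in common. The 250 bases before each RefSeq transcription start (GRCm38.p6) were aligned with gaps. Identical bases made up 47.6% of the 250 between Acot1 and Acot2, and 46.4 to 54.4% (median 50.4%) in the 27 other pairs of members. Of the 223 aligned bases of Acot1 and Acot2, 53.4% were identical. RefSeq start regions were matched for 8 of the 10 members, all but Acot6 and Acot13. They were searched on both strands for a PPAR response element of the DR1 kind, which is the half-site AGGTCA repeated after 1 base of any kind, with at most 2 mismatches in the 12 fixed letters, and for the TATA box TATAAA. The start regions of Acot1, Acot2 and Acot4 are shown because these genes differ in the motifs found. Capitals mark matches, all 3 are on the plus strand, and the regions are Acot1 chr12:84009252-84009501, Acot2 chr12:83987611-83987860 and Acot4 chr12:84038129-84038378.
Acot1: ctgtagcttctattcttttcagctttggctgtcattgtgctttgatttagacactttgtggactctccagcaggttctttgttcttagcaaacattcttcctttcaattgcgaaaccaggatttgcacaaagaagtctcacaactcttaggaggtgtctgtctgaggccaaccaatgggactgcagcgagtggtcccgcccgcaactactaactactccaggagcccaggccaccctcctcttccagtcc
Acot2: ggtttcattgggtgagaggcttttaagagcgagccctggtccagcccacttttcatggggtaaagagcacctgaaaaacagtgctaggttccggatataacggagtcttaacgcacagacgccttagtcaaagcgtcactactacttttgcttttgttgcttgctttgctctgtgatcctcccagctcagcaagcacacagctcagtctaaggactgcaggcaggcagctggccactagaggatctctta
Acot4: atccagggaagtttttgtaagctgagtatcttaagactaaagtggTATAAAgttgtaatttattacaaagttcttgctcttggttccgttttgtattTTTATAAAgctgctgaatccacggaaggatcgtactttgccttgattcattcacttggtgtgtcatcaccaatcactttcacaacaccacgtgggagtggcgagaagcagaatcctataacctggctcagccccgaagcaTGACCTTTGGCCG

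Acot4 had 1 DR1 match, on the minus strand at the last bases before the start, and 3 TATAAA matches, of which a pair on opposite strands overlap. No DR1 match within 2 mismatches lay in the window, taken to 50 bases past the start, of Acot1, Acot2, Acot3, Acot7, Acot8, Acot9 or Acot11. Acot9 had 1 TATAAA match. Of 32851 RefSeq start regions of the same length, 3.86% held a DR1 match at this stringency and 13.6% a TATAAA. Among the 14487 of these that belong to tested genes, the shares were 2.86% and 7.54%. RefSeq gives Acot3 and Acot11 a pair of starts each. The starts of Acot4, Acot7 and Acot8, 1 start of Acot11 and, by a few bases, 1 start of Acot3 lie inside the gene as GENCODE draws it, and the window shown for Acot4 therefore lies past its GENCODE start at 84037254. These matches describe the letters of a short window and were not tested as binding sites.

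In FA cardiomyocytes Acot13, Acot2 and Acot1 were the highest of the 10 genes, and the peroxisomal type I genes were the lowest. Levels between genes are given as RPKM, the CPM (read counts relative to the TMM-scaled library size) divided by the exon length in kilobases. Acot13, a mitochondria-associated thioesterase that acts on medium and long chain acyl-CoA, was highest at 187.1 ± 22.5 RPKM (SD, n = 4). Acot2 followed at 71.7 ± 3.14, Acot1 at 39.7 ± 4.35, and the mitochondrial Acot9 at 29.6 ± 3.11 RPKM. The ranges of these neighbours over the 4 FA libraries did not overlap. Acot7, a cytosolic enzyme best known from brain, stood at 20.8 ± 2.08 RPKM and the peroxisomal Acot8 at 5.14 ± 0.391. Acot11, a lipid droplet and brown fat enzyme with a START lipid-binding domain, was at 2.80 ± 0.185 RPKM. The other three type I genes, all peroxisomal, were lowest, with Acot3 at 0.388 ± 0.0728, Acot4 at 0.152 ± 0.0425 and Acot6 at 0.124 ± 0.0372 RPKM. Only Acot4 and Acot6 overlapped among the 9 pairs of neighbours, although Acot4 was the higher in 4 of 4 libraries. Their order turned when length was taken from the longest coding transcript. With that length 7 pairs of neighbours did not overlap, against 8 with the exon length. The largest step between neighbours was from Acot11 to Acot3, at 7.22 times.

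Acot5, Acot10 and Acot12, family members outside the 10, had 30, 19 and 16 reads over all 8 libraries and did not pass the filter on low counts.

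**Figure D1:**
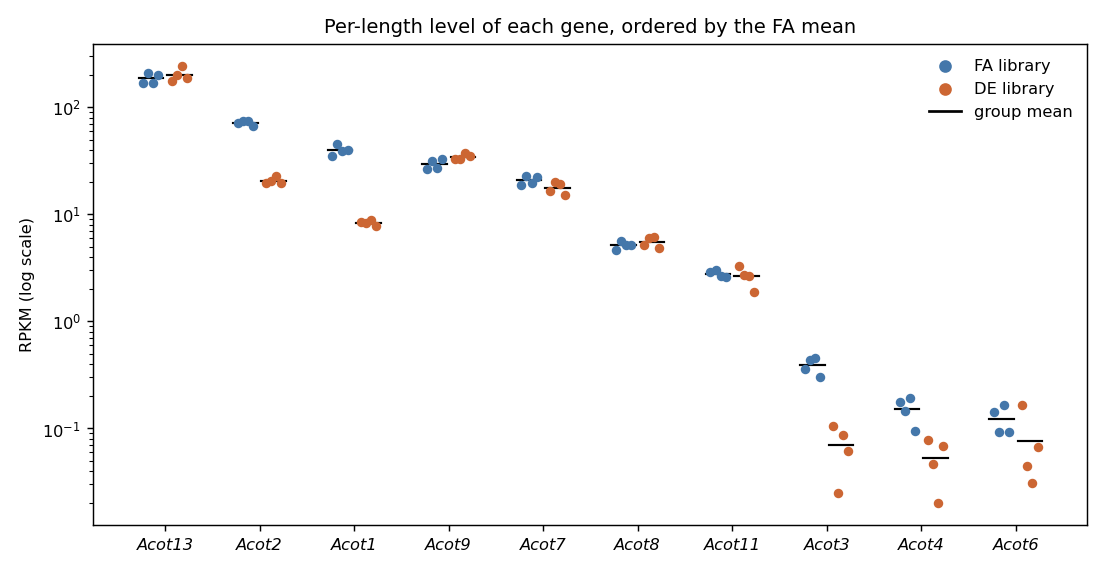
Level per exon length of the 10 thioesterase genes in FA and DE libraries, as RPKM on a log axis, with the genes in order of their FA mean. Points are libraries and bars the group mean; Acot13 is highest and Acot3, Acot4 and Acot6 are lowest in both groups, and Acot1 and Acot2 drop between groups.

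Acot1, Acot2, Acot3 and Acot4 were lower in every DE library than in any FA library, whereas Acot6 and most type II genes overlapped between groups. By the call used for all genes, given here only to describe how the members were picked, 4 of the 10 were lower (FDR of at most 0.05 by edgeR's quasi-likelihood test and a difference of at least 25%), 0 were higher and 6 were not called. Of the 4, Acot3 and Acot4 passed the filter on low counts through the FA libraries, where they are high. Over all 14966 genes tested, 5.80% were called, 2.22% lower and 3.58% higher, and these shares move with single libraries (1.69% called without FA replicate 2, 1.53% without FA replicate 4, 1.82% without DE replicate 3, 1.75% within number 11 and 10.9% with DESeq2). The members were picked on this contrast, and nothing is read from the members' count beside these shares. In 5 members the 4 FA and 4 DE values did not overlap, 4 of them lower and 1 higher in DE. Across all tested genes the groups did not overlap in 14.7%, with 7.26% lower and 7.43% higher. The median log2 difference was -0.46 over the members and 0.00 over all genes.

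Acot1, the cytosolic enzyme (Entrez 26897, GRCm38 chr12:84009502-84017670), had 78.8, 103.0, 89.4 and 89.7 CPM in FA replicates 2, 3, 4 and 6. In DE replicates 1, 3, 5 and 7 it had 19.3, 18.7, 20.1 and 17.54 CPM. Every DE library was far below every FA library, and the DE libraries lay closer together than the FA libraries. The FA mean was 90.2 ± 9.89 CPM and the DE mean 18.9 ± 1.08 (SD, n = 4 in each group), a log2 difference of -2.25 (SE 0.11), or 4.763-fold lower. Each library held 329 to 2949 Acot1 reads. With the libraries of number 11 alone the log2 difference was -2.29.

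Acot2, the mitochondrial matrix enzyme that acts on long chain acyl-CoA (Entrez 171210, chr12:83987861-83993877), had 156.2, 162.6, 162.8 and 148.1 CPM in the FA libraries. The DE libraries had 42.7, 45.2, 50.3 and 42.9 CPM. Neither group spread by more than a small part of the gap between them. The mean went from 157.4 ± 6.90 to 45.3 ± 3.53 CPM, a log2 difference of -1.80 (SE 0.09), or 3.476-fold lower, and the log2 difference was -1.88 within number 11.

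The peroxisomal type I genes were measured on few reads. Acot3 (Entrez 171281, chr12:84052144-84060400) had 46, 30, 28 and 21 reads in the FA libraries and 12, 3, 12 and 4 in the DE libraries. On the CPM scale these were 1.23, 1.49, 1.58 and 1.03 against 0.363, 0.0861, 0.299 and 0.213. All DE values lay below all FA values, but a library with 3 or 4 reads gives its level only roughly. The log2 difference was -2.42 (SE 0.34), 5.361-fold lower, and -2.11 within number 11. Acot4 (Entrez 171282, chr12:84037254-84044723), which acts on succinyl-CoA, had 41, 18, 21 and 12 reads in FA and 16, 10, 5 and 8 in DE. Its CPM values were 1.10, 0.897, 1.19 and 0.590 in FA and 0.484, 0.287, 0.125 and 0.426 in DE. The groups did not overlap, although the lowest FA library came close to the highest DE library. The log2 difference was -1.58 (SE 0.38), 2.982-fold lower, and it was -1.04 and no longer called within number 11. The call was also lost without any 1 of FA replicates 2, 3 or 4 or DE replicates 3 or 5.

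Acot6 (Entrez 217700, chr12:84100654-84109783), at 0.909, 0.598, 1.07 and 0.590 CPM in FA and 1.06, 0.287, 0.200 and 0.426 in DE, overlapped between groups. DE replicate 1, with 35 reads, stood at the FA level, and the other three DE libraries had 8 to 10 reads. The log2 difference was -0.70 (SE 0.47), and -0.01 within number 11. Without DE replicate 1 it was -1.48 and called, so this 1 library decides where Acot6 falls.

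**Figure D2:**
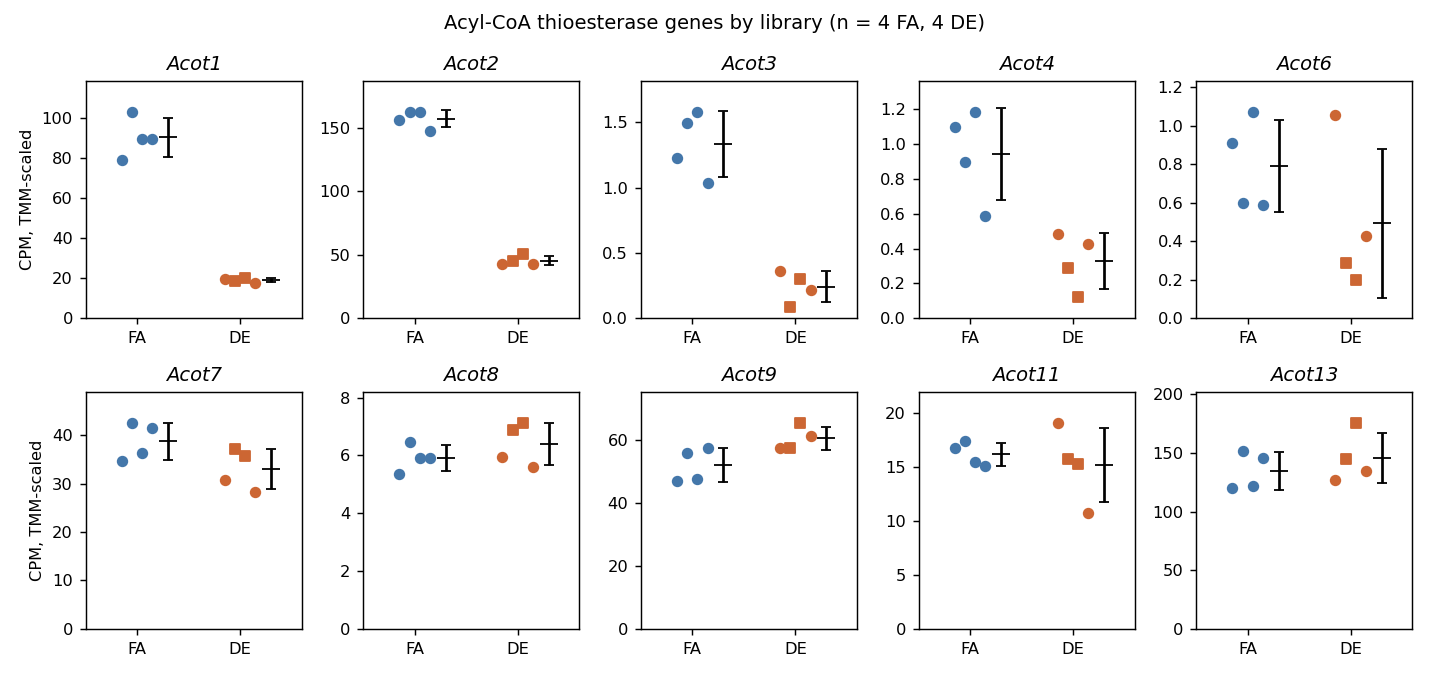
CPM of each of the 10 genes in every library, on a separate axis for each gene, FA and DE side by side. Points are libraries, squares are DE replicates 3 and 5 (number 12 in their names), and bars are the mean ± SD of 4 libraries; the groups stand apart in Acot1, Acot2, Acot3 and Acot4, touch in Acot9 and overlap in the rest.

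The 5 type II genes had log2 differences between -0.23 and 0.22, and none was called. Acot13 (Entrez 66834, chr13:24817955-24831489) had 120.3, 151.7, 121.7 and 145.8 CPM in FA and 127.3, 144.8, 175.8 and 134.3 in DE. The groups overlapped over most of their range, with a log2 difference of 0.11 (SE 0.13). Acot9 (Entrez 56360, chrX:155262443-155297654) had 46.8, 55.8, 47.6 and 57.39 CPM in FA and 57.46, 57.40, 65.3 and 61.2 in DE. The groups did not overlap, but only by 57.39 against 57.40 CPM, and the log2 difference was 0.22 (SE 0.10).

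Acot7 (Entrez 70025, chr4:152178100-152271855) had 34.6, 42.6, 36.2 and 41.4 CPM in FA and 30.8, 37.1, 35.8 and 28.2 in DE. It was lower on average by -0.23 (SE 0.12) on the log2 scale, with overlapping groups. Acot8 (Entrez 170789, chr2:164792768-164820219), at 5.37 to 6.48 CPM in FA and 5.60 to 7.13 in DE, differed by 0.12 (SE 0.13) on the log2 scale. Acot11 (Entrez 329910, chr4:106744555-106805007), at 15.1 to 17.4 CPM in FA and 10.8 to 19.1 in DE, differed by -0.08 (SE 0.15). It spread more in DE (SD 3.43 CPM) than in FA (SD 1.07 CPM). Within number 11 the log2 differences were -0.05 for Acot13, 0.19 for Acot9, -0.39 for Acot7, -0.03 for Acot8 and -0.11 for Acot11, and none was called. The sign of Acot13 and Acot8 thus turned without DE replicates 3 and 5, and that of Acot11 turned to 0.04 without DE replicate 7.

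Summed per length, the makeup of the family shifted toward type II. The 5 type I genes together had 112.1 ± 6.35 RPKM in FA (106.5 to 120.0) and 29.1 ± 1.92 in DE (27.5 to 31.9). The 5 type II genes had 245.5 ± 27.9 RPKM in FA and 262.3 ± 33.4 in DE, with overlapping ranges of 219.8 to 273.8 and 234.4 to 309.2. All 10 together had 357.5 ± 31.1 RPKM in FA (326.3 to 393.8) and 291.4 ± 35.2 in DE (262.7 to 341.1), so the highest DE library lay above the lowest FA library. Type I took 31.5 ± 2.23% of the summed level in FA and 10.05 ± 0.587% in DE. Acot13 alone took 52.2 ± 1.99% in FA and 69.1 ± 1.76% in DE. In order of mean level Acot2 went from rank 2 to rank 3, behind Acot9, and Acot1 from rank 3 to rank 5, behind Acot7.

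**Figure D3:**
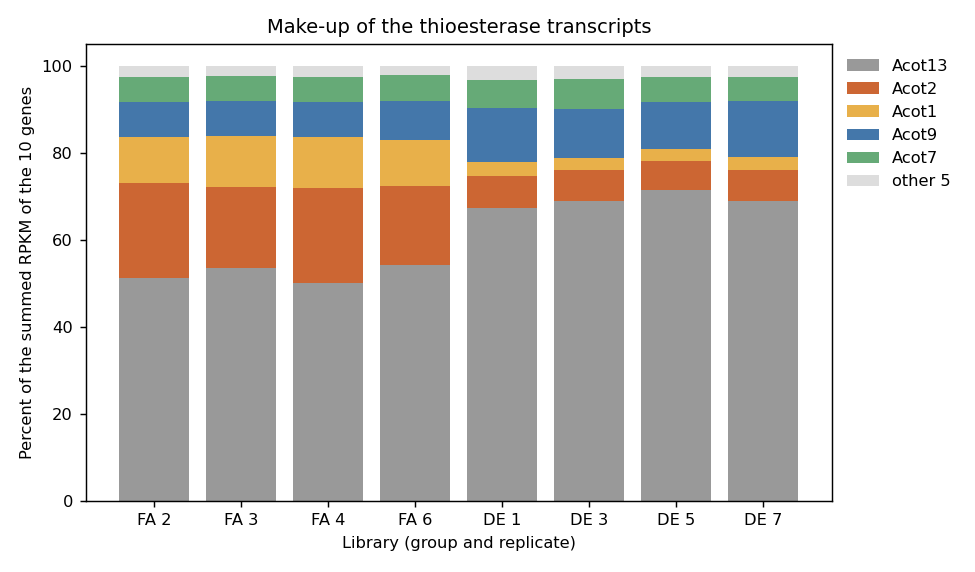
Share of the summed per-length level (RPKM) of the 10 genes taken by each gene, in percent, with 1 stacked bar per library. Acot1 and Acot2 make up a smaller share in each of the 4 DE bars than in any FA bar, and Acot13 a larger one.

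The chromosome 12 cluster was also taken as 1 feature. Its sum does not change with how the counted reads were divided among near-copies. It would change if reads with several positions were dropped or counted more than once, which is not known. Summed over Acot1 to Acot6, the FA libraries had 238.5, 268.7, 256.2 and 240.2 CPM and the DE libraries 64.0, 64.6, 71.2 and 61.5 CPM. The DE libraries were thus all below the FA libraries by a wide margin and close to each other. The mean went from 250.9 ± 14.3 to 65.3 ± 4.11 CPM, a log2 difference of -1.94 (SE 0.09), or 3.839-fold lower, and -2.00 within number 11. Acot1 and Acot2 made up nearly all of it, since Acot3, Acot4, Acot5 and Acot6 gave 1.29 ± 0.264% of the cluster's reads in FA and 1.78 ± 0.967% in DE.

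Within the cluster the balance of counted reads moved from Acot1 toward Acot2, although the split of reads between these near-copies is uncertain. There were 1.98, 1.58, 1.82 and 1.65 Acot2 reads per Acot1 read in the FA libraries and 2.21, 2.42, 2.50 and 2.45 in the DE libraries. The ratio was higher in every DE library than in any FA library, at 2.39 ± 0.130 against 1.76 ± 0.180. The share of Acot1 in the cluster's reads was 35.9 ± 2.38% in FA and 29.0 ± 0.874% in DE.

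The cluster spans 121.9 kb (chr12:83987861-84109783), and no other tested gene lies inside it. Its neighbours were not part of the choice of members, so they were tested. None of the 5 nearest tested genes before it (the closest being Papln, Numb and Riox1) or of the 5 after it (the closest being Dnal1, Pnma1 and Mideas) was called, and their log2 differences ran from -0.21 to 0.15 with a median of -0.15. The count was 0 with edgeR, with DESeq2 and at an unadjusted p below 0.05, where 5.80%, 10.9% and 25.6% of all genes tested were called or reached that p. With 10 genes, 0 calls lies near the 5.80% called over all genes and says nothing particular about the neighbours. At the unadjusted p, 0 of 10 lies below the 25.6% of all genes, and that gap was not tested. On the log2 scale the closest gene before it, Riox1, a ribosomal oxygenase that starts 37.3 kb before Acot2, differed by 0.04 and the closest after it, Dnal1, an axonemal dynein light chain, by -0.11. Farther out, Ptgr2, a prostaglandin reductase, had 168.7 ± 3.69 CPM in FA and 149.7 ± 11.4 in DE without overlap and was not called.

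**Figure D4:**
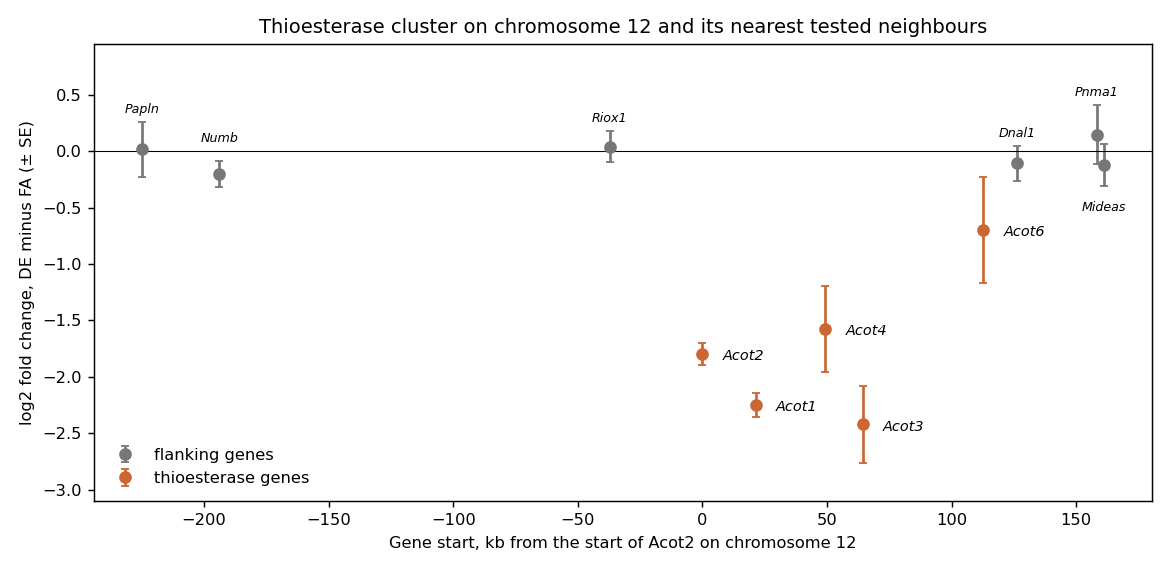
Log2 difference (DE minus FA) with its standard error of the 5 tested type I genes and of the 3 nearest tested genes on each side of them on chromosome 12, by distance in kb from the start of Acot2. The type I genes lie between -2.42 and -0.70 and the flanking genes between -0.20 and 0.15.

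The DE libraries of number 12 and number 11 (2 each) were compared in a model with the FA libraries as another group, a contrast that did not enter the choice of the members. None of the 10 members was called by edgeR, against 2.06% of all genes tested. By DESeq2 0 members and 6.58% of all genes were called, and with no filter on low counts 1 member and 5.15% of all genes. In the edgeR fit 3 members had an unadjusted p below 0.05, against 23.3% of all genes. Acot1 (18.4 CPM in number 11, 19.4 in number 12) differed by 0.07 on the log2 scale (SE 0.15, adjusted p = 0.794, edgeR) and Acot2 (42.8 and 47.7 CPM) by 0.16 (SE 0.12, adjusted p = 0.436, edgeR). The 3 genes with a small unadjusted p were Acot6, Acot4 and Acot7. Acot6 stood at 0.243 CPM in number 12 against 0.743 in number 11 (log2 difference -1.70, SE 0.50, edgeR adjusted p = 0.0869), the latter being the mean of DE replicate 1 at 1.06 and DE replicate 7 at 0.426 CPM. Acot4 stood at 0.206 against 0.455 CPM (-1.18, SE 0.52, edgeR adjusted p = 0.197) and Acot7 at 36.4 against 29.5 CPM (0.30, SE 0.14, edgeR adjusted p = 0.209).

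Of 22 thioesterases and related hydrolases outside the 10, 14 were tested, and edgeR called 0 lower and 0 higher, with a median log2 difference of -0.06. At an unadjusted p below 0.05 the count was 0 as well, against 25.6% of all genes, and DESeq2 also called 0. Against 5.80% called over all genes, 0 of 14 lies near the background. At the unadjusted p, 0 of 14 lies below the 25.6% of all genes, and that gap was not tested. The 14 included Them4, a mitochondrial hotdog thioesterase (10.4 CPM in FA, 10.03 in DE, log2 difference -0.06), Fasn, the fatty acid synthase whose last domain is a thioesterase (168.9 ± 18.4 and 146.7 ± 25.4 CPM, -0.20, adjusted p = 0.354, edgeR), and Hibch, the hydrolase of valine breakdown (60.9 ± 2.37 and 54.8 ± 3.87 CPM, -0.15, adjusted p = 0.310, edgeR). The protein depalmitoylating enzymes Ppt1, Ppt2, Lypla1, Lypla2, Abhd10, Abhd17a, Abhd17b and Abhd17c, together with Mblac2, Lyplal1 and Them6, had log2 differences from -0.21 (Lypla1) to 0.24 (Them6). Acot5, Acot10, Acot12, Them5, Baat, Acnat1, Acnat2 and Olah were too low to test.

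Of the acyl-CoA synthetases, which run the opposite reaction, 2 of 13 tested were called lower and 0 higher (median -0.16). Over all genes tested, 2.22% were called lower and 3.58% higher. The synthetase count was 4 without FA replicate 6, where 5.34% of all genes were called. Acsl1, the main long chain synthetase of heart, fell from 907.6 ± 30.8 to 457.0 ± 53.1 CPM (log2 difference -0.99, SE 0.10, adjusted p = 0.000552, edgeR). Slc27a1, a fatty acid transporter with synthetase activity, fell from 88.0 ± 10.2 to 43.8 ± 6.31 CPM (-1.01, SE 0.13, adjusted p = 0.00181, edgeR). Both are also in the PPAR alpha target list below. Of 15 tested genes of CoA synthesis, transport and breakdown, 1 was lower and 0 higher (median -0.15), near the 5.80% called over all genes. The lower one was Slc25a42, which carries CoA into mitochondria (34.5 ± 6.40 to 16.3 ± 2.11 CPM, -1.08, SE 0.15, adjusted p = 0.00306, edgeR). The count in this list was 2 without DE replicate 1 and 2 with the number as a term.

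Among 9 tested binding proteins for acyl-CoA and fatty acids, 1 was lower and 1 higher (median -0.01), beside 2.22% lower and 3.58% higher over all genes. Fabp3, the heart fatty acid binding protein, fell from 1556 ± 166 to 962.5 ± 165.7 CPM (-0.69, SE 0.13, adjusted p = 0.0162, edgeR), and Fabp5, the epidermal one, rose from 32.6 ± 8.11 to 68.1 ± 19.7 CPM (1.07, SE 0.22, adjusted p = 0.0197, edgeR). Fabp5 lost its call within number 11 (0.67), with the number as a term (0.67), and without FA replicate 2 (0.95), FA replicate 4 (0.99) or DE replicate 3 (0.89), with edgeR adjusted p from 0.0591 to 0.105.

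Of 14 tested genes of peroxisomal acyl-CoA metabolism, the compartment of Acot3, Acot4, Acot6 and Acot8, 5 were lower and 0 higher (median -0.26). Over all genes tested, 2.22% were lower and 3.58% higher. Abcd3, a peroxisomal importer of acyl-CoA, fell from 143.8 ± 7.10 to 82.7 ± 4.78 CPM (-0.80, SE 0.09, adjusted p = 0.000829, edgeR). Acox3, a peroxisomal oxidase of branched chain acyl-CoA, fell from 32.6 ± 1.73 to 23.4 ± 0.746 CPM (-0.48, SE 0.09, adjusted p = 0.0138, edgeR). Its call was lost within number 11 and without FA replicate 2 or FA replicate 4 (log2 difference -0.47 to -0.46, edgeR adjusted p from 0.0529 to 0.0759). The count in this list rests on single libraries. It was 1 without FA replicate 2 and 1 without FA replicate 4, where 1.69% and 1.53% of all genes were called. It was 3 without FA replicate 3, DE replicate 3 or DE replicate 7, and 2 within number 11.

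Of 27 tested PPAR alpha target genes, 22 were lower and 0 higher (21 called within number 11), with a median log2 difference of -0.85. Over all genes tested, 2.22% were lower and 3.58% higher. Like the other related gene lists, this list was chosen with earlier results of these data known, so its count and median are a description. The median of the members was -0.46 and Acot1 and Acot2 lay below the median of this list. The members were picked on the same contrast, and nothing is read from that comparison. The called genes named here were picked by their adjusted p in this contrast, so the p-values printed for them are selected ones. Ucp3, a mitochondrial carrier of muscle, fell from 9.64 ± 1.13 to 0.210 ± 0.103 CPM (-5.47, SE 0.25). It had 12, 5, 7 and 3 reads in DE replicates 1, 3, 5 and 7, so its DE level is rough. It passed the filter on low counts through the FA libraries, where it is high, and its p-value is left out. Cpt1a, which commits acyl groups to the carnitine shuttle, fell from 166.5 ± 17.6 to 59.2 ± 7.27 CPM (-1.49, SE 0.12, adjusted p = 8.52e-05, edgeR), and Mlycd, which removes the Cpt1 inhibitor malonyl-CoA, from 60.6 ± 5.33 to 25.7 ± 2.49 CPM (-1.24, SE 0.11, adjusted p = 0.000175, edgeR).

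Of 11 tested regulators of thioesterase genes, 1 was lower and 0 higher (median -0.15). That count lies near the 5.80% called over all genes. The lower one was Ppargc1b, a coactivator of PPAR and ERR receptors (31.0 ± 7.10 to 18.3 ± 1.76 CPM, -0.76, SE 0.16, adjusted p = 0.0224, edgeR). Its call was lost within number 11, with the number as a term and without FA replicate 2, FA replicate 4 or DE replicate 3. In these settings its log2 difference was -0.745 to -0.666. The count in this list was 2 without DE replicate 1, with DESeq2, with the likelihood ratio test and with library totals alone. Ppara itself was not called, at 32.3 ± 5.51 CPM in FA and 27.1 ± 4.70 in DE (-0.25, SE 0.15, adjusted p = 0.309, edgeR).

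**Figure D5:**
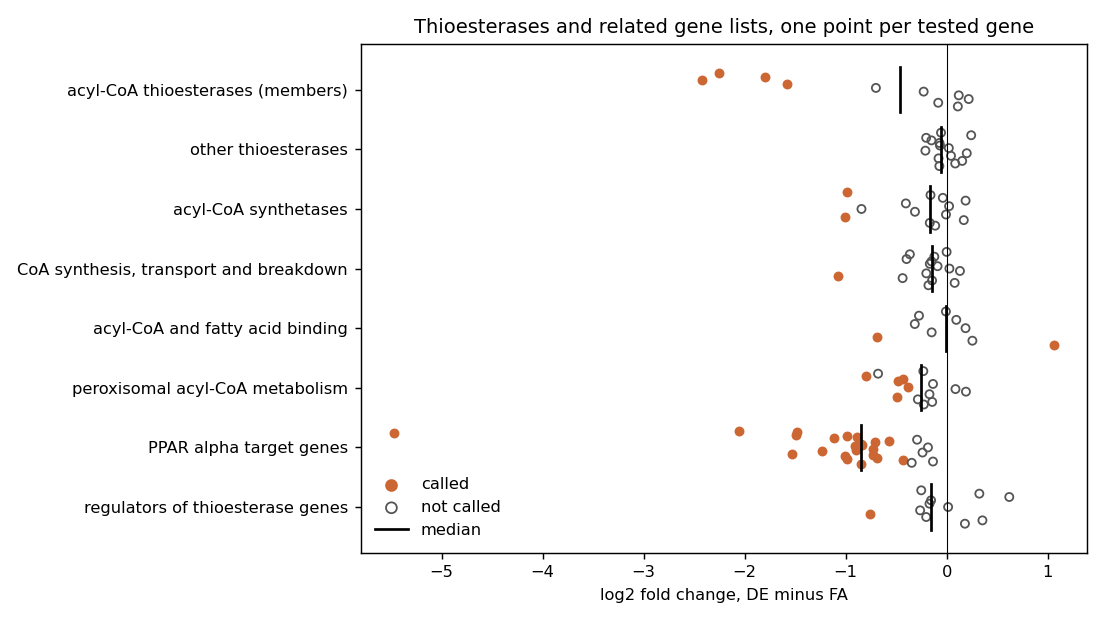
Log2 difference (DE minus FA) of every tested gene in the member list and the 7 related gene lists, with 1 point per gene, filled where called, and a line at each list's median. The medians run from -0.85 in the PPAR alpha target genes to -0.01 in the binding proteins.

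The genes whose profile over the 8 libraries was most like that of Acot1 or Acot2 were named by the root mean square difference of log2(CPM + 0.5) after centring each gene, among the 13355 genes outside the Acot family whose mean reached 1 CPM. This measure is set mostly by the DE to FA difference and is a description. Nearest to Acot1 among these were Fbp2, the muscle fructose bisphosphatase (0.237), Angptl4, a secreted inhibitor of lipoprotein lipase (0.315), and Scd4, a heart stearoyl-CoA desaturase (0.353). Fbp2 is low (3.11 CPM in FA, 0.187 in DE), so that the added 0.5 shrinks its difference toward that of Acot1, and its fitted log2 difference was -3.99. Angptl4 went from 24.1 to 5.73 CPM and Scd4 from 75.8 to 12.0 CPM. Nearest to Acot2 among these were Tfrc, the transferrin receptor (0.209, from 350.5 to 107.9 CPM), Lgals4, galectin-4 (0.224, from 35.8 to 11.6 CPM), and Hsdl2, a peroxisomal dehydrogenase (0.234, from 309.8 to 120.3 CPM). Acot1 and Acot2 themselves, left out of that search, were 0.238 apart.

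Markers of other cells were read beside these results, since in bulk RNA fewer cells of a type and less RNA per cell cannot be told apart. All 10 cardiomyocyte markers were present and their sum was 74355 to 79346 CPM in FA and 63397 to 73835 in DE, with means of 75893 and 66247 CPM and with Myh6 called lower and Myh7 higher. The sum of 8 fibroblast markers was 2008 to 3461 CPM in FA and 3655 to 6177 in DE, 1.66-fold higher and without overlap, with Col1a1 and Dcn called higher. The part of cell makeup in the results was not tested. Sums for 7 endothelial, 6 smooth muscle and pericyte, 7 leukocyte, 5 of 6 erythroid and 7 skeletal muscle markers overlapped between groups. Hepatocyte markers, of interest because type I thioesterases are also known from liver, summed to 1.02 to 2.07 CPM in FA and 1.599 to 3.17 in DE, with Serpina1a at 0 in all libraries. Brown adipocyte markers summed to 36.8 to 44.4 CPM in FA and 26.8 to 35.0 in DE without overlap, nearly all of it Prdm16 and Cidea, of which Cidea was called lower, while the defining Ucp1 was at 0.619 and 1.02 CPM and Plin1 at 0 in FA. The sum of 6 neuronal markers was 4.83 to 5.70 CPM in FA and 6.02 to 9.61 in DE without overlap, with Tubb3 called higher.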

How the data were processed

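RNA was measured in 8 NCM libraries, 4 FA and 4 DE. According to the study's methods, poly-A stranded libraries were aligned with TopHat to mm10, duplicates were marked and not removed, and the authors deposited raw read counts per gene from featureCounts. Counting settings for strand and for reads with several positions are not given in the sources used here, and the methods name fewer libraries per group than were used here. The 10 members, the 7 gene lists and the tests were chosen with earlier results of these data known. Of 27179 Entrez IDs, 25275 were paired with a symbol. Genes were kept by filterByExpr (minimum count 10) and tested on the deposited counts with edgeR 4.0.16 (R 4.3.3; TMM, glmQLFit, glmQLFTest, Benjamini-Hochberg over all 14966 genes, biological coefficient of variation 15.95%), called at FDR 0.05 and a fold of 1.25. DESeq2 1.42.0 was an alternative. The scripts were tested on simulated data. RPKM used union exon lengths of GENCODE M21 basic. Sequences were read from GENCODE M21 and RefSeq start regions with Biopython 1.88. Named genes were all members and other thioesterases, up to 3 called genes per further list by adjusted p, the 10 flanking genes and the 3 profiles most like Acot1 and Acot2; Ppara was added after its values were seen, and some genes that the rule names are not reported here. No libraries agreed within sampling noise: chi-square per gene was 5.369 for the closest pair (FA replicates 2 and 4). Depth was 17943024 to 39839737 counts.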

Additional observations from a re-analysis of the deposited data

Results flagged for a closer look

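No member had a library that stood apart from its group by Dixon's test. Among the other named genes, 5 values did, each as the highest or lowest of 4 libraries: Acox3 in FA replicate 6 (30.05 CPM, a gap of 0.854 of the group's range), Ucp3 in FA replicate 2 (11.31 CPM, 0.844), Ucp3 in DE replicate 1 (0.3631 CPM, 0.858), Ptgr2 in DE replicate 1 (132.7 CPM, 0.872) and Them4 in FA replicate 3 (11.56 CPM, 0.878). At a 95% critical value, chance alone flags some groups when many genes are looked at, and these values have no further test.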

How the results depend on the processing

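The count of called genes was 868 over all genes and moved to 1633 with DESeq2, 1603 with the likelihood ratio test, 260 within number 11 and 448 with the number as a term; leaving out 1 library gave 237 (without FA replicate 4) to 1168, with 249, 433, 268 and 526 without FA replicates 2 and 3 and DE replicates 3 and 5. Between DE numbers 12 and 11 the count of 309 moved to 1119 with no filter and 985 with DESeq2. Within number 11 and with the number as a term Acot8 turned from 0.12 to -0.03 and Acot13 from 0.11 to -0.05 and -0.04, and Acot11 turned from -0.08 to 0.04 without DE replicate 7. As a description of genes picked on this contrast, the log2 difference over the 15 alternatives ranged from -2.00 to -1.87 for the cluster sum, -2.31 to -2.18 for Acot1, -1.88 to -1.73 for Acot2, -2.69 to -2.10 for Acot3 and -1.89 to -1.04 for Acot4, which lost its call in 7 of 15. The FA order of the members turned only for Acot4 and Acot6, under the longest coding transcript as length, an alternative chosen after seeing the data. Acot3, Acot4 and Acot6 rest on few reads, and depth limits them. The cause of these shifts was not tested. No paired analysis was run, because the labels give no pairing of FA with DE pups.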
